A study of Panagrellus redivivus with 189 samples.

Results

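In embryos of the free-living nematode *Panagrellus redivivus*, 78 of 1572 measured features were present in the 1- to 3-cell embryo and kept a similar share of the RNA counts, outside 6 abundant rows, through the 6- to 10-cell stage and into the gastrula. They were chosen by their values. Single-cell libraries were summed in 3 sets: sample numbers 1 to 9 (the 1-3 cell set), 201 to 250 (the 6-10 cell set) and 278 to 350 (the gastrula set). A member had at least 200 CPM (counts of the feature per 1000000 counts) in the 1-3 cell set, lay within 2.5-fold of that level in the 6-10 cell set, and lay within 3-fold of the 6-10 cell level in the gastrula set. Sample numbers 10 to 39 and 251 to 277 were not used by that rule and serve as held-out embryos. Their values, the values of single embryos and those of single cells are the subject here.

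An animal embryo starts with RNA that the mother placed in the egg, and much of this maternal RNA is degraded as the embryo's own genome is switched on. A transcript can keep its share of the RNA either by lasting or by being made again, and a count of RNA does not separate those routes. In *Caenorhabditis elegans*, the best known nematode, the zygote P0 divides into a larger anterior cell, AB, and a smaller posterior cell, P1, and the later P cells lead to P4, the founder of the germ cells.

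No treatment is given for any embryo. Each was freed of its egg shell and taken apart by hand into cells, which were frozen singly. Each cell received its own barcode in CEL-Seq2, a method that amplifies and sequences the 3′ end of transcripts, and the cells of an embryo went into a common library, so embryo and sequencing library cannot be told apart. The cell libraries came from 20 embryos. The 1-3 cell set was 1-cell embryos 1 and 2, 2-cell embryos 1 and 2 and a 3-cell embryo. The 6-10 cell set held a 6-cell and a 7-cell embryo, 8-cell embryos 2 to 5, a 9-cell and a 10-cell embryo. The held-out embryos were 8-cell embryo 1, 12-cell embryo 1 and a 14-cell embryo in the lower sample numbers, and 12-cell embryo 2 and a 20-cell embryo in the higher ones. The gastrula set was 1 late and 1 early gastrula embryo. The whole 1-3 cell set has lower sample numbers, and the whole 6-10 cell and gastrula sets have higher ones. Between the 1-3 cell set and the later sets, stage and range of sample numbers therefore cannot be told apart.

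Many embryo sums cover only some of the cells, since several embryos have fewer libraries than cells. In such sums, fewer cells of a type and less RNA per cell cannot be told apart. No label states that embryos came from different cultures, so p-values measure only the spread between these embryos. In the late gastrula embryo 21 of 40 libraries carry an extra digit in their title that the labels do not explain, as does 1 of 17 libraries of the 20-cell embryo. The features carry no gene name in the files used here and are called by their row in the count table, so no function or sequence is given for any of them. Counts are of 3′ ends and feature lengths were not used, so levels are compared between embryos and cells. Where members are ranked, it is by their counts, only to choose which ones to name.

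All levels below are CPM of the counts outside 6 abundant rows that the rule leaves out. Those 6 rows took 65.2% to 78.9% of the counts of the held-out lower-number embryos, 2.27% in 12-cell embryo 2 and 8.50% in the embryo with 20 cells. Outside them, single libraries held 14 to 44125 counts (median 5174) and the held-out embryos held 11539 (8-cell embryo 1), 8981 (12-cell embryo 1), 11090 (14-cell), 93917 (12-cell embryo 2) and 139254 (20-cell). A feature with 0 counts could still be present at 3 counts per embryo, which is 260, 334 and 271 CPM in the 8-cell, 12-cell and 14-cell embryos of the lower numbers, 31.9 CPM for 12-cell embryo 2 and 21.5 CPM for the embryo with 20 cells. These limits cover counting error only.

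The rule started from 273 features with at least 200 CPM in the 1-3 cell set. Of these, 43 lay above the 2.5-fold limit in the 6-10 cell set, 97 lay within it and the rest fell below it. Of the 97, 6 were 3-fold or more below the 6-10 cell level in the gastrula set and 13 were at 3 times that level or higher, which left the 78 members. The other 195 features serve below as the rest of the features present early. The limits are wide, and the members were not level: 40 lay within 1.5-fold between the 1-3 and 6-10 cell sets, 39 lay within 1.5-fold between the 6-10 cell and gastrula sets, and 20 did both. The median ratio was 1.09 for the 6-10 cell set over the 1-3 cell set, and 0.951 for the gastrula set over the 6-10 cell set. These values restate the rule and support nothing by themselves.

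The features nearest the limits show how sharp the choice was. Row997 had 214 CPM in the 1-3 cell set and was inside, and row1064 had 160.7 CPM and was outside. Row433 had a 6-10 cell over 1-3 cell ratio of 0.405 and was inside, against 0.399 for row796, which was outside. At the upper limit row628 was inside with 2.20 and row578 outside with 2.54. Between the 6-10 cell and gastrula sets, row1276 was inside with 0.338 and row1476 outside with 0.319, and row691 was inside with 2.60 and row695 outside with 3.06.

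The 1-cell embryos, which contain the egg's RNA and whatever the zygote made, belong to the 1-3 cell set, so presence there is largely fixed by the rule. Their 2 libraries held counts of 74 and 75 of the 78 members (94.9% and 96.2%), beside 99% and 96.4% of the 195 other features. Row997 and row1404 had 0 counts in both. In the 2- to 3-cell embryos row997 had 12 counts and row1404 had 14. Their pooled CPM there was 1.53 and 1.79 times what 3 missed counts would give in the pooled 1-cell embryos. The counting error of the 12 and 14 counts is not included. The other 76 members had counts in at least 1 of the 1-cell embryos.

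In the held-out embryos most members stayed within 2.5-fold of the 1-3 cell level. The count was 55 of 78 in 8-cell embryo 1, 64 in 12-cell embryo 1, 59 in the 14-cell embryo, 66 in 12-cell embryo 2 and 67 in the embryo with 20 cells. With libraries pooled, 68 of 78 members were within the limit in numbers 10 to 39 and 75 of 78 in numbers 251 to 277. These counts depend on leaving the 6 abundant rows out of the totals: with them kept, the rule gave 73 members, of which 19 were within the limit in numbers 10 to 39 and 65 in numbers 251 to 277. Over single members, 29 were within it in all 5 held-out embryos, 29 in 4, 12 in 3, 6 in 2 and 2 in 1. The median ratio to the 1-3 cell level was 0.765, 0.891, 0.753, 0.891 and 1.08 in those embryos in the same order.

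Of the 195 other features present early, 90.3% were outside the rule because they had already left the 2.5-fold limit in the 6-10 cell set, 68.2% below it and 22.1% above it. In the held-out embryos with 12 or more cells they were mostly outside it too, which repeats that choice in other embryos. Of the 195, 33 lay within 2.5-fold of the 1-3 cell level in 12-cell embryo 1. In the 14-cell embryo 26 did. The counts were 20 for 12-cell embryo 2 and 42 for the embryo with 20 cells. Their median ratios were 0.201, 0.126, 0.184 and 0.302 in those embryos. In 8-cell embryo 1, 66.2% of the 195 other features lay within 2.5-fold of the 1-3 cell level, beside 70.5% of the members. With both lists held to features of at least 1000 CPM in the 1-3 cell set, the shares in that embryo were 73.9% of 46 members and 72.9% of the other features. In the 14-cell embryo they were 78.3% and 9.02%. Set against the 6-10 cell level in place of the 1-3 cell level, the order of the embryos turned round. Within 2.5-fold of it lay 58.97% of the members and 23.1% of the 195 other features in 8-cell embryo 1. In 12-cell embryo 1 it was 84.6% and 81.03%, in the 14-cell embryo 85.9% and 68.7%, in 12-cell embryo 2 97.4% and 84.6%, and in the embryo with 20 cells 94.9% and 77.9%. The size of the gap between members and other features in an embryo therefore depends on the level it is measured from.

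**Figure D1:**
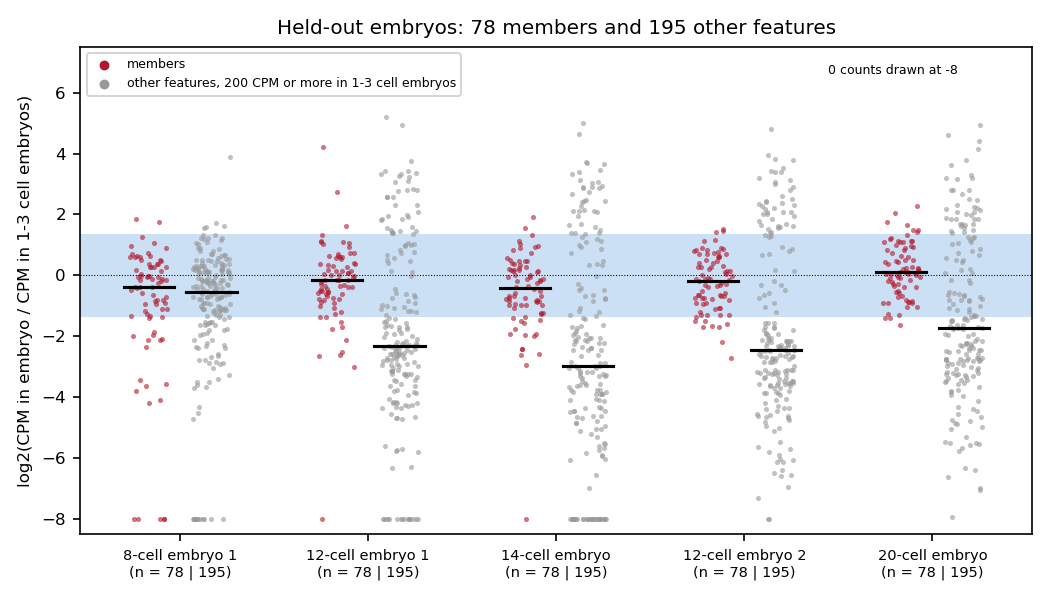
Ratio of the CPM in each held-out embryo to the CPM in the 1-3 cell set, on a log2 scale, for the 78 members (red, left of each pair) and the 195 other features present early (grey, right). Each point is a feature, the black line is the median, the blue band marks 2.5-fold either way, and features with 0 counts are drawn at the bottom. In 8-cell embryo 1 the 2 medians are 0.765 and 0.693 as ratios, and in the 14-cell embryo 0.753 and 0.126.

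In the held-out embryos, which the rule did not use, the members together took a share of the counts of 20.0% in 8-cell embryo 1, 19.8% in 12-cell embryo 1, 16.7% in the 14-cell embryo, 19.0% in 12-cell embryo 2 and 20.7% in the embryo with 20 cells. In the sets used by the rule, whose limits hold the share near a fixed level, it was 21.1% for 1-3 cells, 19.4% for 6-10 cells and 20.8% for gastrulae. Row619 and row433 alone made up 28.1% of the members' counts in the 1-3 cell set. Over the single libraries with at least 2000 counts, most of them from the rule's sets, the share ran between 13.3% and 24.5% with a median of 20.6%, and a library held counts of 55 to 78 members, with a median of 75.

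Row619 had the smallest spread over the held-out embryos among the 6 members with the highest mean CPM there. It had 31632, 23717, 26510, 20039 and 22355 CPM in 8-cell embryo 1, 12-cell embryo 1, the 14-cell embryo, 12-cell embryo 2 and the 20-cell embryo. The 1-cell embryos had 27064 and 35251 CPM, the 2-cell embryos 21408 and 17985, and the 3-cell embryo 26549. Its highest held-out embryo was 1.58 times its lowest, and the ranges of the held-out and the 1-3 cell embryos overlapped. Over the 8 embryos of the 6-10 cell set it lay between 13490 and 21154 CPM with a median of 17702, and the late and early gastrula embryos had 19844 and 24068.

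Row437, row1033 and row1424 were, with row619, the 4 members with the smallest spread over the held-out embryos, with high over low ratios of 1.59, 1.59 and 1.46. Row437 ran between 2253 and 3578 CPM there, row1033 between 1647 and 2615, and row1424 between 991 and 1448. All 3 overlapped their values in the 1-3 cell embryos. Over all 78 members the median high over low ratio was 3.77, 11 members were under 2 and 10 were above 10.

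Row433, the member with the most counts in the 1-3 cell set, was high early and late and low in between. The held-out embryos had 32238 CPM in 8-cell embryo 1, 5345 in 12-cell embryo 1, 4328 in the 14-cell embryo, 11798 in 12-cell embryo 2 and 17766 in the embryo with 20 cells. The 1-cell embryos had 31345 and 28468, the 2-cell embryos 44353 and 40888, and the 3-cell embryo 29638. The 8-cell embryo was among the 1-3 cell embryos, and the 4 held-out embryos of 12 to 20 cells were all below every 1-3 cell embryo. The late and early gastrula embryos had 32923 and 38811, so the level in gastrulae was again that of the earliest embryos. Within 2.5-fold of its 1-3 cell level it lay in 2 of 5 held-out embryos, and its membership rests on the 6-10 cell set, where it lay at the limit.

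The other members among the 6 with the highest held-out means were row494, row1263, row1371 and row1377. Row494 averaged 7539 ± 1780 CPM in the held-out embryos and 4384 ± 1256 CPM in the 1-3 cell embryos (SD, n = 5 each), and the ranges overlapped. Row1377 averaged 6932 ± 2354 CPM in the held-out embryos and 4920 ± 896 CPM in the 1-3 cell embryos, also with overlap. Row1263 had 1127 CPM in 8-cell embryo 1 and 9798, 6673, 11872 and 6097 CPM in the 4 later held-out embryos, against 3675 to 6178 CPM in the 1-3 cell embryos. Row1371 had 2253 CPM in 8-cell embryo 1 and 11914 CPM in 12-cell embryo 1, with the other 3 held-out embryos between 4258 and 8678.

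**Figure D2:**
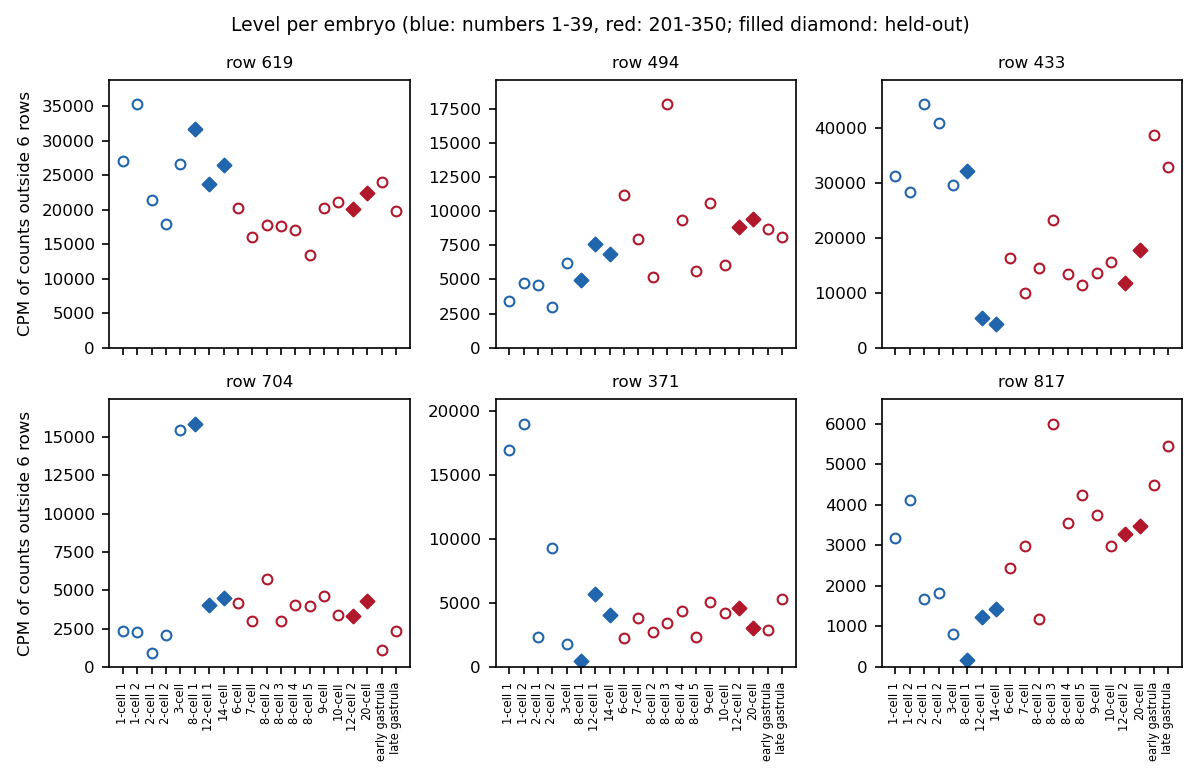
CPM of 6 members in each of the 20 embryos, ordered by sample number; blue points have numbers 1 to 39, red points 201 to 350, and filled diamonds are held-out embryos. Row619 stays between 13490 and 35251 CPM. Row433 is high in 1-3 cell embryos, 8-cell embryo 1 and gastrulae, row704 is high in the 3-cell embryo and 8-cell embryo 1, and row371 and row817 are lowest in those 2 embryos.

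The 3-cell embryo and 8-cell embryo 1 shared departures from the 1- and 2-cell embryos. These were compared for the 46 members of at least 1000 CPM in the 1-3 cell set, a comparison chosen after the values were seen. The 3-cell embryo gave 45.7% of the counts of the 1-3 cell set. It differed by over 2.5-fold from the pooled 1- and 2-cell embryos in 12 of the 46: row157, row370, row704, row1218 and row1221 were higher and row105, row371, row630, row795, row817, row992 and row1442 were lower. In 8-cell embryo 1, which the rule did not use, all 12 lay beyond 2.5-fold on the same side of the 1- and 2-cell level. In each of the other 14 embryos beyond the 1-3 cell set, 4 to 7 of the 12 did. The pattern was not particular to members: of the other features of at least 1000 CPM, 25 departed in the 3-cell embryo, and 21 of the 25 did so the same way in 8-cell embryo 1 and 15 to 17 in each of the other 14 embryos. All these counts are set against the same pooled 1- and 2-cell level. Of the 34 remaining members, 0 were over 2.5-fold higher and 7 over 2.5-fold lower in 8-cell embryo 1.

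Row704 shows the higher kind. Its level in 8-cell embryo 1 was 15859 CPM, close to the 15445 CPM of the 3-cell embryo, against 897 and 2108 in the 2-cell embryos and 2347 and 2302 in the 1-cell embryos. Its other held-out embryos had 3290 to 4509 CPM, and no other embryo of the 20 was above 5745 CPM. Row371 shows the lower kind. Its level in 8-cell embryo 1 was 433 CPM, against 1799 in the 3-cell embryo, 2307 and 9274 in the 2-cell embryos and 16984 and 19019 in the 1-cell embryos, and 3066 to 5679 in the other held-out embryos. Row630 had 0 counts in 8-cell embryo 1, and its level in the 3-cell embryo was 274 CPM, against 1710 CPM in the pooled 1- and 2-cell embryos.

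Over the same 46 members, the median absolute log2 difference in level between 8-cell embryo 1 and the 3-cell embryo was 0.54. The next smallest for 8-cell embryo 1 was 0.94, to 12-cell embryo 1, and the largest was 1.84, to 8-cell embryo 3. The other 8-cell embryos thus lay farther from it than the 3-cell embryo did. The labels place 8-cell embryo 1 and the 3-cell embryo in the lower sample numbers and 8-cell embryos 2 to 5 in the higher ones, and sample number and embryo cannot be told apart for the 8-cell stage with 1 lower-number embryo. Both stages are taken from the labels and were not checked, so every value and test of 8-cell embryo 1 here is of the embryo labelled so.

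**Figure D3:**
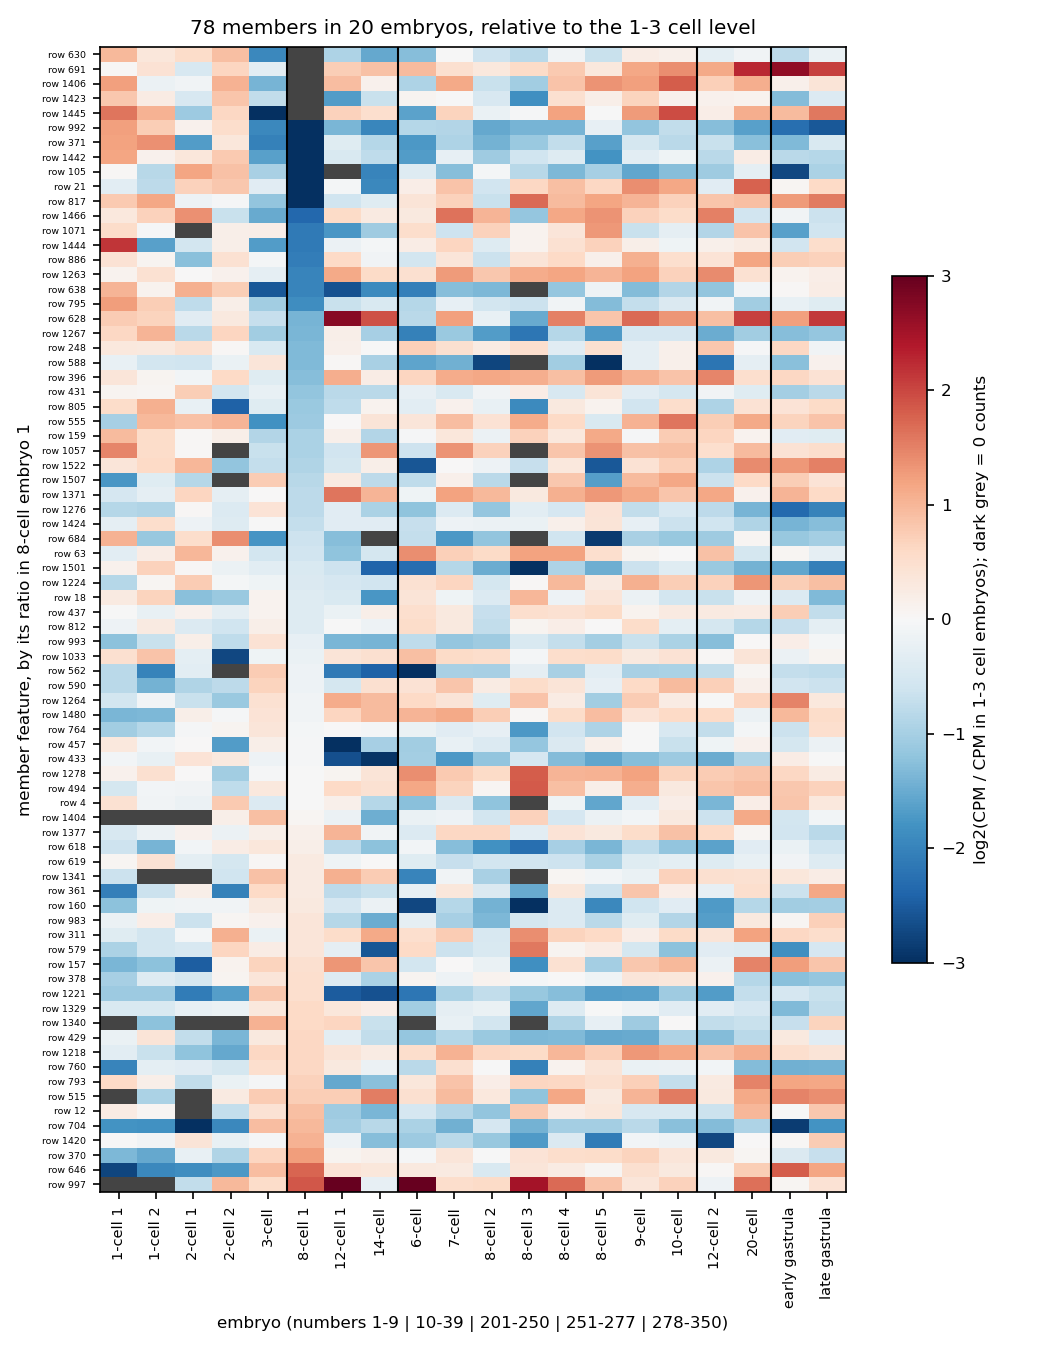
All 78 members (rows, ordered by their ratio in 8-cell embryo 1) in the 20 embryos (columns), as log2 of CPM over CPM in the 1-3 cell set, with red higher, blue lower and dark grey 0 counts. Vertical lines part the sample number ranges of the rule and the held-out ranges. The dark blue and grey entries at the top of the 8-cell embryo 1 column are the 5 members at 0 counts and those far below the 1-3 cell level, most of which are also blue in the 3-cell column.

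Differences between embryos were tested with edgeR's quasi-likelihood test on the summed counts of all 20 embryos in a single fit, with Benjamini-Hochberg adjustment over the 604 features that passed the filter on low counts. All 78 members passed it. Most groups of the fit mix stages, such as early with late gastrula, so its shared spread includes differences between stages. An adjusted p under 0.05 was called a change.

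Between the 12- and 14-cell embryos of the lower numbers and 8-cell embryo 1, a comparison added after the data were seen, 13 of 78 members (16.7%) changed, 11 higher and 2 lower. The background was 30.8% of 604 features, with 21.5% higher and 9.27% lower. DESeq2 gave the other order, but it was run without the filter on low counts, over 1369 features in place of 604. Its background thus holds scarce features that the filter removes, and the 2 backgrounds are not alike. With edgeR run without that filter, over the same 1369 features, the members' share stayed below the background. Why DESeq2 gave the other order was not tested. No order between members and background is read from these counts. The 8-cell side is 1 embryo, assumed to vary like the other groups, and this comparison was not tried on simulated counts. Without 12-cell embryo 1 the count of members was 6, and without the 14-cell embryo it was 7. The median log2 difference was 0.66 over the members and 1.46 over all features with the fitted values, and 0.65 and 0.00 when features at 0 counts on a side were set to their bound. With DESeq2's size factors the medians were 1.11 and 1.92.

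The members that fell were row433 and row1221. Row433 had 5345 and 4328 CPM in the 12- and 14-cell embryos, against 32238 CPM in 8-cell embryo 1 (log2 difference -2.48 ± 0.51 SE, adjusted p = 0.00117, edgeR). Row1221 had 779 and 721 CPM in the 12- and 14-cell embryos, against 6240 CPM in 8-cell embryo 1 (log2 difference -2.79 ± 0.93 SE, adjusted p = 0.0246, edgeR), a call that was lost without the 14-cell embryo (adjusted p = 0.124, the highest over 6 alternatives, of which the lowest was 0.00123). The 11 that rose were row371, row396, row628, row630, row691, row817, row886, row1263, row1371, row1406 and row1445. Row1445, row691, row1406 and row630 had 0 counts in 8-cell embryo 1. Their pooled CPM in the 12- and 14-cell embryos was 4.79, 3.64, 2.30 and 1.72 times what 3 counts in 8-cell embryo 1 would give. The counting error of the 12- and 14-cell side is not included. Row1445 had 1336 and 1172 CPM in the 12- and 14-cell embryos and row691 had 891 and 992. Row628 had 7572 and 4328 CPM there, against 433 CPM in 8-cell embryo 1 (log2 difference 4.03 ± 1.17 SE, adjusted p = 0.0110, edgeR), a call lost without 12-cell embryo 1 (adjusted p = 0.0616, the highest over 6 alternatives, of which the lowest was 0.000391). With either embryo of the 12- to 14-cell pair left out, 5 of the 13 members were still called: row371, row433, row691, row1263 and row1445.

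The sample number ranges were compared where both hold embryos of similar stage, the 12- to 20-cell embryos of the higher numbers against the 12- to 14-cell embryos of the lower numbers. None of the 78 members passed the threshold in edgeR, beside 1 of 604 features (0.166%). At an unadjusted p under 0.05 there were 11 members and 67 features. On simulated counts, with each feature at its level pooled over all 20 embryos, 32% of 4-fold changes over the 604 features were found here. A lack of calls therefore does not mean equal levels. The member nearest the threshold was row433, with 11798 and 17766 CPM in the higher-number embryos, against 5345 and 4328 CPM in the lower-number ones, which did not overlap (log2 difference 1.95 ± 0.45 SE, adjusted p = 0.0507, edgeR). DESeq2 called it, with an adjusted p of 0.0477, and over 10 alternatives the adjusted p ran between 0.0477 and 0.903. The median log2 difference was 0.66 over members and 0.62 over all features (0.43 with features at 0 counts on a side set to their bound), and 0.19 and 0.15 with DESeq2's size factors, so single members are read against that shift. The range of sample numbers and the stage (12 and 20 cells against 12 and 14) differ together here.

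Between the 2- to 3-cell and the 1-cell embryos, 0 of 78 members and 0 of 604 features (0%) passed the threshold in edgeR. Both groups make up the 1-3 cell set of the rule, so nothing is read from the members' count beside the background. At an unadjusted p under 0.05 there were 11 members and 36 features, and DESeq2 also called 0 members. Row371 had the smallest adjusted p of the members, with 1799 CPM in the 3-cell embryo and 2307 and 9274 in the 2-cell embryos, against 16984 and 19019 CPM in the 1-cell embryos. The groups did not overlap (log2 difference -2.03 ± 0.57 SE, adjusted p = 0.453, edgeR). Without 2-cell embryo 2 it passed, at a log2 difference of -2.86 and an adjusted p of 0.00514, and over 11 alternatives the adjusted p ran between 0.00514 and 1. On simulated counts, 15.5% of 4-fold changes were found in this comparison. The changed features were drawn from all 604, of which 273 had 0 counts on a side here, against 2 of 78 members. The rate for members was not measured, so a lack of calls does not mean equal levels.

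Both groups compared next make up the 6-10 cell set of the rule, so nothing is read from the members' count beside the background. Between the 9- to 10-cell and the 6- to 8-cell embryos of the higher numbers, 1 of 78 members changed, beside 23 of 604 features (3.81%), 7 higher (1.16%) and 16 lower (2.65%). That member was row588. It had 1609 CPM in the 9-cell embryo and 2164 in the 10-cell embryo, against 652 CPM in the 6-cell, 720 in the 7-cell and 289, 0, 940 and 184.5 in 8-cell embryos 2 to 5. The 2 groups did not overlap (log2 difference 2.06 ± 0.58 SE, adjusted p = 0.0378, edgeR). The call was lost when any of 7 embryos was left out, namely the 6-cell, 7-cell, 9-cell and 10-cell embryos and 8-cell embryos 2, 3 and 5, with the log2 difference between 1.68 and 2.12, and over 14 alternatives the adjusted p ran between 0.00967 and 0.699. The 12-cell embryo 2 had 426 CPM and the 20-cell embryo 1616, so the high level was not kept in both later held-out embryos of that number range.

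Late and early gastrula were 1 embryo each, so these values have no replicate check. Both make up the gastrula set of the rule, whose limit removed features far from the 6-10 cell level there, so nothing is read from the members' counts beside the background. Of the 78 members, 9 were at least 2-fold higher and 2 at least 2-fold lower in the late embryo. Of 580 features with at least 30 counts, 38.6% differed 2-fold, with 29.8% higher and 8.79% lower. The median ratio was 1.04 over members and 1.25 over all these features. Few members have low counts, so the same was done for features with at least 300 counts: 4 of 59 members were 2-fold higher and 2 lower, and of 280 features 50 were higher (17.9%) and 20 lower (7.14%).

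Row361 had 1285 CPM in the late embryo (exact Poisson 95% interval 1173 to 1404), against 366 CPM in the early one (275 to 478), a ratio of 3.51. Row105 had 554 CPM in the late embryo (482 to 634), against 162.8 CPM in the early one (104.3 to 242), a ratio of 3.41. In the other direction row437, one of the steadiest held-out members, had 1763 CPM (1632 to 1901) in the late embryo, against 4917 CPM (4565 to 5288) in the early one, a ratio of 0.359. Row1264 had 3037 CPM (2865 to 3217) in the late embryo, against 6849 CPM (6433 to 7285) in the early one, a ratio of 0.443. The intervals cover counting error only, and those of the 2 embryos did not overlap for any of the 4. These 4 were named for the 2 largest ratios in each direction, so that is largely given by the choice.

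**Figure D4:**
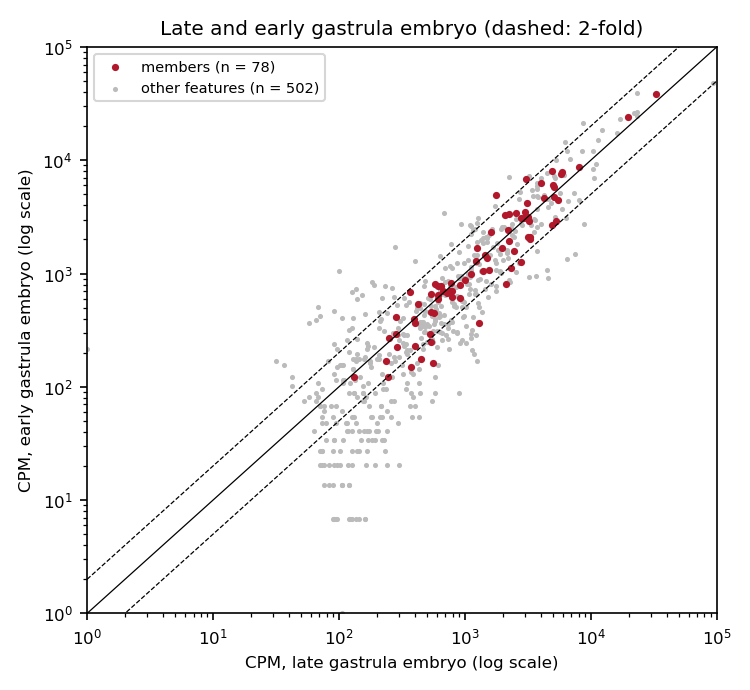
CPM in the late gastrula embryo (x axis) against the early gastrula embryo (y axis), both on log scales, for the 78 members (red) and the 502 other features with at least 30 counts (grey). The solid line marks equal levels and the dashed lines 2-fold. Of the members, 11 lie outside the dashed lines, 9 higher in the late embryo and 2 lower.

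Spread between the cells of an embryo was measured as the excess squared coefficient of variation, the variance of a feature over libraries beyond counting error divided by the square of its mean. A value of 0 means no spread beyond counting error. It was taken over libraries with at least 2000 counts, in embryos with at least 3 such libraries and for features with at least 5 expected counts per library. The median over embryos was 0.0625 for the median member (75 with a value) and 0.0725 for the median feature (430 with a value). The members' median was below that of all features, which include the members, in 11 of 12 embryos. It was above it in the 9-cell embryo (0.0866 against 0.0815). Only 12-cell embryo 2 (0.092 for members, 0.110 for all features) and the 20-cell embryo (0.114 and 0.149) were held out. The rule chose members by their levels in the rest, so the tally is not read as a trait of the members. The gap was small beside the difference between embryos, whose member medians ran between 0.0004 in 8-cell embryo 5 and 0.134 in the late gastrula embryo. Without the digit-titled libraries the late gastrula medians were 0.103 for members and 0.119 for all features.

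**Figure D5:**
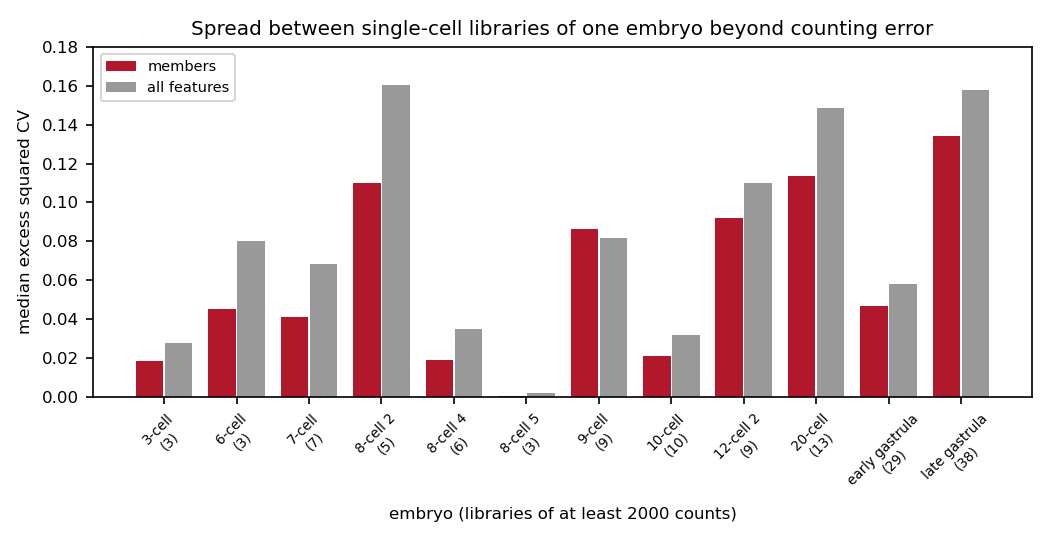
Median excess squared coefficient of variation between the cell libraries of each embryo, for members (red, left) and all features with enough counts (grey, right), with the number of libraries in parentheses. The members' bar is the lower in every embryo drawn except the 9-cell embryo. Both bars are tallest in 8-cell embryo 2, the 20-cell embryo and the late gastrula embryo.

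Row378 was among the 3 members with the lowest excess, at 0.0084. In the 10 cells of the 10-cell embryo it lay between 3332 and 5165 CPM with a median of 4074, and in the 13 libraries of the 20-cell embryo between 1216 and 2669 with a median of 1672. Row1444 and row1404, the other members with the lowest excess (-0.0101 and 0.0080), had values in 6 and 3 embryos. Row997 was the most uneven, at 0.456. It ran between 39.3 and 1337 CPM over the 7 cells of the 7-cell embryo and between 79.9 and 1621 over the 10 cells of the 10-cell embryo, with a median of 167.4. Row588 (0.236) had a median of 1198 CPM in the late gastrula libraries and 12315 CPM in the highest of them. Row793 (0.158) ran between 630 CPM in the median cell of 12-cell embryo 2 and 4028 CPM in its highest.

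The labels name AB and P1 cells in 2-cell embryo 2 and the 3-cell embryo. The members' share of the counts was 19.7% in P1 and 18.9% in AB of the 2-cell embryo, and 22.3% in P1 and 22.1% and 20.2% in the cells labelled AB1 and AB2 of the 3-cell embryo. Of 44 members tested, 0 differed between P1 and AB in edgeR, beside 0 of all features tested in this comparison (0%). That fit did not use the pairing of P1 and AB within an embryo. At an unadjusted p under 0.05 it gave 0 features, and DESeq2, also unpaired, called 0. Paired by embryo, edgeR called 0 of 44 members and gave 7 features at an unadjusted p under 0.05, 1 of them a member. The unpaired fit found 18.6% of 4-fold changes in simulated counts. Row433 had 38394 CPM in P1 and 42053 in AB of the 2-cell embryo, and 29772 in P1 and 31501 and 28175 in AB1 and AB2 of the 3-cell embryo. Row371 was the most uneven member in the 3-cell embryo, with 278 CPM in P1 (4 counts) and 6668 and 1898 CPM in AB1 and AB2 (29 and 13 counts), an excess of 1.53. In 2-cell embryo 2 it was the other way round, with 13680 CPM in P1 and 7215 CPM in AB.

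In 12-cell embryo 1 one library is labelled DP4, a name the labels do not explain. It held 1176 counts, of which 204 were in 55 members (17.3%). Row619 had 23810 CPM in it and 23703 CPM in the other 9 libraries pooled, and row1371 had 11905 CPM in it and 11915 CPM in the others. Row433 had 1701 CPM there (2 counts), against 5894 CPM in the others. The library labelled P4 of the 14-cell embryo held 27 counts outside the 6 rows, 5 of them in members, and allows no statement.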

How the data were processed

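The authors deposited a table of raw counts, not normalized, with a column for each cell library. Per the submitters' processing notes the tools were CASAVA 1.8, Bowtie2 2.1.0 and HTSeq 0.5.4p3, and their roles are not given. The genome build, and whether counts are of reads or of molecular identifiers, are not given in the sources used here. The table used here has 1572 complete rows and ends inside a further one, and totals are totals of these rows. A deposited list of gene models was not used, since nothing pairs it with rows.

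Columns were matched to samples by sample number, and counts were summed per embryo. The 2 numbered 2-cell libraries were assumed to be the cells of 1 embryo. The members and lists were chosen with earlier results of these data known. Tests used edgeR 4.0.16 in R 4.3.3 (TMM factors, filterByExpr, 8 stage groups), with DESeq2 1.42.0 as an alternative. The fits were tested on simulated data. Named rows were the 26 given by set ranks: highest, most and least variable held-out members, most and least uneven, largest gastrula ratios, those at the rule's limits and those called. Row371, row630 and row704, and those listed for the 3-cell embryo, were named after their values were seen. AB and P1 come from the same embryos, so the numbers pair them (correlation of deviations 0.474). No pair of libraries was identical.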

Additional observations from a re-analysis of the deposited data

Results flagged for a closer look

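Among the 26 named members, 81 sets of 4 to 10 embryos were examined for an embryo far from the rest, and 6 had one. Chance flags about 5% of such sets. Row21 and row997 were named for their large ratio of highest to lowest held-out CPM, so their held-out flags largely follow from that choice. The 5% does not apply to sets whose rows were picked on the same values.

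In the 1-3 cell embryos, row1221 had 7703 CPM in the 3-cell embryo, while the other 4 had 1026 to 2071, and row1444 had 1657 CPM in 1-cell embryo 1, while the other 4 had 117.3 to 422. In the 6- to 8-cell embryos, row437 had 1821 CPM in 8-cell embryo 2, below the 3627 to 4392 CPM of the other 5, and row1404 had 401 CPM in 8-cell embryo 3, above their 171.97 to 225 CPM. In the held-out embryos, row21 had 3519 CPM in the 20-cell embryo, while the other 4 had 86.7 to 1002. Row997 had 4008 CPM in 12-cell embryo 1, while the other 4 had 180.3 to 780.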

How the results depend on the processing

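Depth limits most counts in the lower-number embryos, and the 3-cell embryo weighs most in the 1-3 cell set. The number of members was 72 to 82 when single embryos were left out. It was 74 with mean CPM over embryos (65 shared with the 78) and 79 without digit-titled libraries (75 shared). With TMM factors it was 72, of which 59 were shared. Of those 72, 65 lay within 2.5-fold in numbers 10 to 39 and 62 in numbers 251 to 277, in place of 68 and 75 of 78. With the 6 rows kept there were 73 members, 56 of them shared. Without the 3-cell embryo, 59 of 72 were shared. With the 6 rows kept, 19 in place of 68 members lay within 2.5-fold in numbers 10 to 39.

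Members called moved as follows. In the comparison of number ranges, DESeq2 called 1 in place of 0. Between 2-3 cell and 1 cell, leaving out embryos gave 0 to 1. Between 9-10 and 6-8 cell, 1 became 0 with libraries of at least 2000 counts and 0 with only the compared embryos, and leaving out embryos gave 0 to 1. Between 12-14 and 8 cell, 13 became 20 with DESeq2, 8 without the filter and 6 to 7 without single embryos. The paired P1 and AB fit with a replicate block called 0 of 44, as without it, and 7 features at an unadjusted p under 0.05. Between 12-14 and 8 cell the members' share of calls was below that of all features in edgeR's alternatives. In DESeq2 it was above, over a background not filtered on low counts, while edgeR without that filter kept it below.

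Over all features, the range comparison called 1, but 8 with the 6 rows kept, 3 without the filter, 2 with DESeq2, 0 with libraries of at least 2000 counts and 0 with only the compared embryos; the other 5 alternatives gave 1. The 9-10 cell count was 23, but 55 without the filter, 1 with only the compared embryos, 43 without 8-cell embryo 4, 11 without 8-cell embryo 2, 15 without the 6-cell embryo or 8-cell embryo 3, 1 without the 9-cell and 0 without the 10-cell embryo. Between 12-14 and 8 cell 30.8% were called, and 16.4% without the 14-cell embryo.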
